A study of Mus musculus with 22 samples.

Results

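NF-kB is a family of dimeric transcription factors that carries the signal of Toll-like receptors to the nucleus, and its transcripts were followed here together with those of the IkB proteins that hold it in check. The 10 genes were chosen by name: Rela (p65), Rel (c-Rel), Relb, Nfkb1 (p105, processed to p50) and Nfkb2 (p100, processed to p52) encode the subunits, Nfkbia (IkBα), Nfkbib (IkBβ) and Nfkbie (IkBε) the classical inhibitors, and Nfkbiz (IkBζ) and Bcl3 the atypical ones. Their RefSeq accessions matched 14 of the 28054 array probes tested, and 10 of the 18355 named genes. The comparisons ask how lipopolysaccharide (LPS), the endotoxin of Gram-negative bacteria, changes these transcripts in macrophages, and how that depends on the kinases MK2 and MK3, which act downstream of p38 MAP kinase.

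In resting macrophages the classical IkB proteins keep NF-kB dimers in the cytosol. LPS activates the IkB kinase complex, which marks IkB proteins for ubiquitination by SCF-βTrCP and for degradation, and the freed dimers enter the nucleus. Several genes of the family are NF-kB targets themselves, Nfkbia being the textbook case of negative feedback. Atypical IkB proteins act in the nucleus on dimers of p50 or p52 and can raise or lower transcription of single target genes.

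Bone marrow-derived macrophages (BMDM) were cultured from C57BL/6 mice of 10 to 14 weeks that were labelled male and were wild type (wt), lacked MK2 (MK2-/-) or lacked MK2 and MK3 (MK2/3-/-). They received medium or 100 ng/ml LPS for 360 min, and each sample was hybridised to its own array. There were 4 wt arrays in medium and 3 with LPS, 4 MK2-/- arrays in each condition, and 3 MK2/3-/- arrays in medium and 4 with LPS. The mice lack the kinases in all tissues, so the bone marrow had developed without them, and cells lacking MK3 alone were not analysed here. The study's methods describe completely independent experiments, and nothing in the labels says which arrays came from which animal. The names of the arrays also carry letters whose meaning is not given in the sources used here, and within a genotype a medium and an LPS array that share a letter were from mice of equal age in 10 of 10 pairs. Each genotype had a slide to itself, scanned within 1 day. Direct comparisons between genotypes therefore cannot be told apart from a slide effect, whereas an additive slide effect cancels in LPS against medium and in the difference of that response between genotypes.

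The median processed signal per array ranged from 32.7 to 108 and the share of probes well above background from 61.1 to 78.0%. The probe for Mapkapk2, the gene of MK2, gave mean log2 signals of 11.90 in medium and 14.89 with LPS in wt, against 8.88 and 11.61 in MK2-/- and 8.44 and 11.02 in MK2/3-/- BMDM. The probe for Mapkapk3, the gene of MK3, gave 13.13 and 12.12 in wt, 12.90 and 12.35 in MK2-/-, and 11.16 and 8.0 in MK2/3-/- BMDM. Where these probes lie relative to the deleted sequence was not checked. On 2 arrays, replicate 3 of MK2-/- BMDM in medium and replicate 3 with LPS, the Y-linked Ddx3y was at 1.99 to 2.01, against 10.1 to 11.3 on the other 20, and Xist was at 7.66 to 7.78, against at most 5.79. These 2 arrays, which share a letter, go against the label male, and the results below were also computed without them. Of 6 macrophage markers 5 were on the array and 4 were well above background on all arrays, with a summed signal of 18.7 to 19.5 (log2). Of 25 markers of other cell types 21 were tested, and 6, 7 and 8 of them passed for LPS against medium in wt, MK2-/- and MK2/3-/- BMDM. Of these, 5, 4 and 6 were higher and 1, 3 and 2 lower. Of all probes, 18.4, 17.6 and 20.2% were called higher and 23.8, 27.9 and 28.5% lower. The largest spread was in the fibroblast list, whose summed level ran from 9.29 to 16.7 and overlapped between all groups. Its genes had higher means in wt than in MK2-/- or MK2/3-/- BMDM in both conditions, though none was called between genotypes. In medium and with LPS, Col1a1 means were 12.41 and 12.55 in wt, 9.51 and 9.12 in MK2-/-, and 8.86 and 9.20 in MK2/3-/-. Those of Col1a2 were 13.59 and 14.06, 11.85 and 11.56, and 11.11 and 11.33. In such bulk samples fewer cells of a type and less RNA per cell cannot be told apart.

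LPS raised the transcripts of nearly the whole family in every genotype. Of the 10 genes, 9 rose in wt cells, all 10 in MK2-/- BMDM and 9 in MK2/3-/- BMDM, and none fell (limma, Benjamini-Hochberg adjusted over all probes tested). Of all probes tested, 18.4, 17.6 and 20.2% were called higher with LPS in the 3 genotypes, and 23.8, 27.9 and 28.5% lower. The median log2 difference of the 10 genes was 3.18 in wt, 3.11 in MK2-/- and 3.31 in MK2/3-/- BMDM, beside medians of -0.06, -0.04 and -0.02 over all probes. Nfkbiz had the largest difference in each genotype, from 20.2-fold to 32.8-fold, and Rela the smallest, from 1.28-fold to 1.55-fold. The counts were the same without the 2 MK2-/- arrays named above. Where arrays were scaled to their 75th percentile instead of by quantiles, the median of all probes moved up to 0.27, 0.26 and 0.26, and Rela passed the test in all 3 genotypes.

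**Figure D1:**
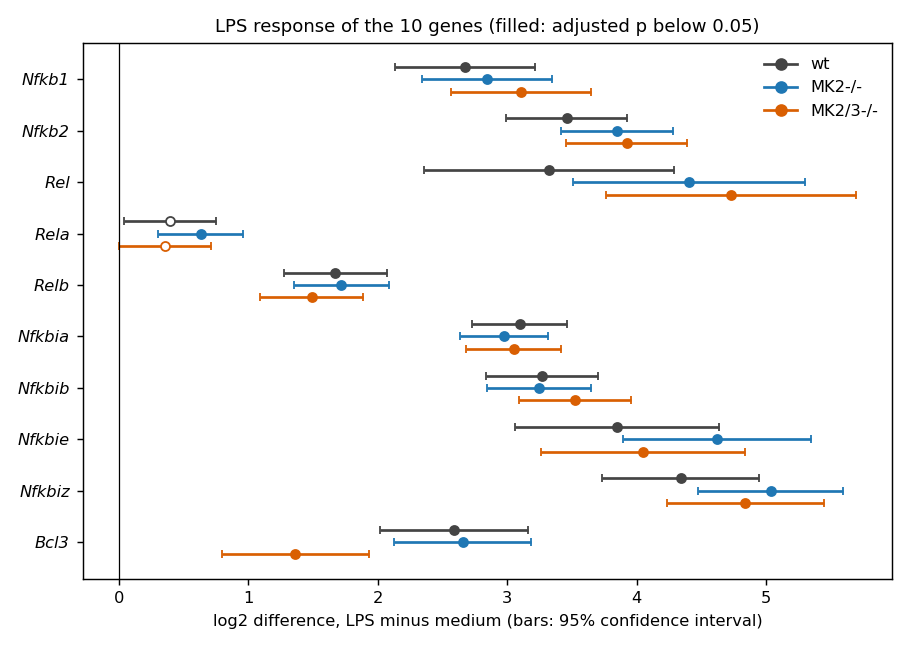
Log2 difference between LPS and medium for the 10 genes (points, with 95% confidence intervals as bars) in wt, MK2-/- and MK2/3-/- BMDM, filled where the adjusted p was below 0.05. Rela stays nearest to 0 in all 3 genotypes, the other genes lie above 1, and for Bcl3 the MK2/3-/- point (1.36) sits left of the wt (2.59) and MK2-/- (2.66) points.

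Among the subunits, Rela, which carries a transactivation domain and forms the classical dimer with p50, was the gene with the smallest difference. In wt BMDM its log2 signal was 15.16, 15.16, 15.21 and 15.05 in medium and 15.44, 15.63 and 15.55 with LPS. The MK2-/- arrays gave 14.81, 14.89, 14.96 and 15.22 in medium and 15.62, 15.61, 15.20 and 15.99 with LPS. The MK2/3-/- arrays gave 15.08, 15.07 and 15.30 in medium and 15.45, 15.52, 15.32 and 15.75 with LPS. The LPS arrays lay above the medium arrays in wt and MK2/3-/- BMDM, while in MK2-/- BMDM the LPS array of replicate 3 overlapped the medium arrays. With LPS it differed by 0.39 ± 0.17 (SE, log2) in wt (adjusted p = 0.0701), by 0.63 ± 0.16 in MK2-/- (adjusted p = 0.00246) and by 0.36 ± 0.17 in MK2/3-/- BMDM (adjusted p = 0.0887, limma). Without both replicate 3 arrays the MK2-/- value was 0.76 (limma, adjusted p = 0.00134).

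Rel, the subunit best known from lymphocytes and from the Il12b gene of macrophages, had the widest spread between groups. In wt BMDM its log2 signal was 5.81, 5.77, 5.37 and 6.22 in medium and 8.58, 9.20 and 9.55 with LPS. In MK2-/- BMDM it was 3.60, 2.37, 4.13 and 3.99 in medium, not well above background on any of these 4 arrays, and 8.31, 7.46, 7.56 and 8.38 with LPS. For MK2/3-/- cells the values were 4.96, 5.64 and 5.00 in medium and 10.48, 10.45, 8.52 and 10.25 with LPS. Every LPS array was above every medium array of its genotype, and the 4 MK2-/- medium arrays were the lowest of all 22. Rel rose by 3.32 ± 0.46 in wt (9.99-fold, adjusted p = 1.11e-05) and by 4.72 ± 0.46 in MK2/3-/- BMDM (26.4-fold, adjusted p = 8.23e-08, limma). In MK2-/- BMDM it rose by 4.40 ± 0.43 (21.2-fold, adjusted p = 7.04e-08, limma), with measured means of 7.93 with LPS and 3.52 in medium. Where a medium array was below its dimmest signal well above background, it was raised to that signal, and the rise was 21.0-fold. Other values were kept as measured. The mean was then 3.53, beside 3.52 as measured, and this gives no lower limit of the rise. With normexp background correction of the raw signals, which lifts dim probes, the measured Rel responses were smaller, at 2.33 in wt, 1.94 in MK2-/- and 3.36 log2 units in MK2/3-/- BMDM, and all 3 passed the test.

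Relb, the subunit that pairs with p52 in the alternative pathway, had a smaller and even response. Its log2 signal in wt BMDM was 11.57, 11.85, 11.73 and 12.18 in medium and 13.47, 13.56 and 13.48 with LPS. For MK2-/- cells the values were 11.86, 12.43, 11.70 and 12.10 in medium and 13.69, 13.97, 13.62 and 13.68 with LPS. In MK2/3-/- BMDM it was 12.14, 11.89 and 12.04 in medium and 13.51, 13.73, 13.63 and 13.17 with LPS. Treated and untreated arrays did not overlap in any genotype. Relb rose 3.19-fold, 3.29-fold and 2.81-fold in wt, MK2-/- and MK2/3-/- BMDM, with adjusted p between 1.36e-07 and 2.25e-06 (limma). A second Relb probe gave log2 differences of 1.97, 2.01 and 1.91.

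Nfkb1 and Nfkb2, whose precursors p105 and p100 also act as inhibitors through their ankyrin repeats, rose in every genotype. The log2 signal of Nfkb1 in wt BMDM was 10.35, 11.23, 10.13 and 10.56 in medium and 12.76, 13.27 and 13.68 with LPS. In MK2-/- BMDM it was 10.46, 10.99, 10.22 and 10.33 in medium and 13.26, 13.18, 13.24 and 13.68 with LPS. The MK2/3-/- arrays gave 10.49, 10.61 and 10.17 in medium and 13.34, 13.56, 13.50 and 13.71 with LPS. Again the LPS arrays were all above the medium arrays, by 6.37-fold in wt (2.67 ± 0.26), 7.17-fold in MK2-/- (2.84 ± 0.24) and 8.59-fold in MK2/3-/- BMDM (3.10 ± 0.26). A second Nfkb1 probe gave log2 differences of 2.65, 3.71 and 2.71. On this probe replicate 2 of MK2-/- BMDM in medium was at 7.68, below the other arrays of that group at 9.57 to 10.10. The 2 Nfkb1 probes correlated with r = 0.913 over the 22 arrays, the lowest value among the genes with several probes.

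The log2 signal of Nfkb2 in wt BMDM was 11.07, 11.22, 11.05 and 11.66 in medium and 14.59, 14.77 and 14.75 with LPS. The MK2-/- arrays gave 11.12, 12.03, 10.92 and 11.29 in medium and 15.20, 15.41, 15.02 and 15.13 with LPS. For MK2/3-/- cells the values were 11.16, 10.98 and 11.07 in medium and 15.12, 15.18, 15.05 and 14.63 with LPS. Nfkb2 rose 11.0-fold in wt (3.46 ± 0.22), 14.4-fold in MK2-/- (3.85 ± 0.21) and 15.2-fold in MK2/3-/- BMDM (3.92 ± 0.22), and its groups did not overlap.

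The classical inhibitors rose together with the subunits. Nfkbia, which is degraded fastest after stimulation and resynthesised under NF-kB, had log2 signals of 14.46, 14.94, 14.91 and 15.23 in medium and 17.81, 17.99 and 18.14 with LPS in wt BMDM. For MK2-/- cells the values were 15.17, 15.39, 14.90 and 15.02 in medium and 18.05, 18.05, 18.09 and 18.18 with LPS. In MK2/3-/- BMDM it was 15.26, 15.04 and 14.86 in medium and 18.02, 17.99, 18.26 and 18.14 with LPS. The 11 LPS arrays lay within 17.81 to 18.26, the narrowest range of the family after LPS. The rise was 8.55-fold in wt, 7.84-fold in MK2-/- and 8.27-fold in MK2/3-/- BMDM, with adjusted p of at most 3.4e-10 (limma).

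Nfkbie, the inhibitor found mainly on dimers that hold c-Rel or p65, had log2 signals of 10.02, 10.90, 9.41 and 9.99 in medium and 14.11, 14.03 and 13.63 with LPS in wt BMDM. In MK2-/- BMDM its values were 9.67, 10.23, 8.63 and 9.5 in medium and 14.24, 14.46, 13.88 and 13.95 with LPS. The MK2/3-/- arrays gave 10.67, 10.74 and 9.41 in medium and 14.59, 14.52, 14.02 and 14.17 with LPS. Its medium arrays were spread more widely within each group than its LPS arrays. Nfkbie rose 14.4-fold in wt (3.84 ± 0.38), 24.6-fold in MK2-/- (4.62 ± 0.35) and 16.6-fold in MK2/3-/- BMDM (4.05 ± 0.38).

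Nfkbib, the inhibitor that is degraded more slowly and can also bind nuclear dimers, was measured by 3 probes. On the brightest one its log2 signal in wt BMDM was 11.34, 11.65, 11.52 and 11.97 in medium and 14.69, 14.92 and 15.06 with LPS. The MK2-/- arrays gave 11.80, 12.49, 11.68 and 11.92 in medium and 15.18, 15.12, 15.20 and 15.36 with LPS. For MK2/3-/- cells the values were 11.72, 11.64 and 11.62 in medium and 15.23, 15.44, 15.34 and 14.71 with LPS. The groups with and without LPS did not overlap, and the 4 LPS arrays of MK2-/- BMDM were all above the 3 of wt. Nfkbib rose 9.65-fold in wt (3.27 ± 0.21), 9.47-fold in MK2-/- (3.24 ± 0.19) and 11.5-fold in MK2/3-/- BMDM (3.52 ± 0.21). The second probe gave log2 differences of 3.49, 3.56 and 3.78 and the third 3.25, 3.67 and 4.12. Over the 22 arrays the probes correlated with each other with r between 0.981 and 0.997.

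**Figure D2:**
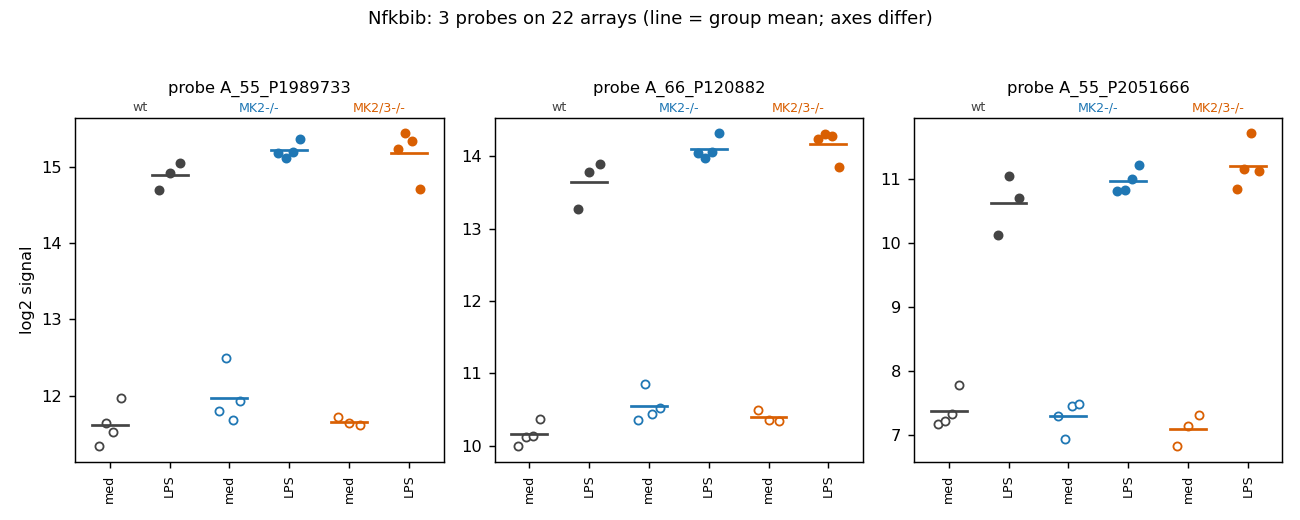
Log2 signal of the 3 Nfkbib probes on each array by genotype and treatment (points, with the group mean as a line; each panel has its own axis). On every probe the LPS arrays lie above the medium arrays of all 3 genotypes, and wt replicate 1 (14.69, 13.27 and 10.13) is the lowest LPS array.

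The atypical inhibitors included the gene with the largest response. Nfkbiz, a nuclear protein needed for part of the secondary response genes of macrophages such as Il6, had log2 signals of 8.31, 9.08, 8.49 and 8.71 in medium and 12.26, 13.34 and 13.36 with LPS in wt BMDM. For MK2-/- cells the values were 7.97, 8.37, 7.64 and 8.59 in medium and 13.07, 12.78, 13.19 and 13.66 with LPS. In MK2/3-/- BMDM it was 8.76, 8.88 and 8.42 in medium and 13.37, 13.36, 13.78 and 13.61 with LPS. The rise was 20.2-fold in wt (4.34 ± 0.29), 32.8-fold in MK2-/- (5.03 ± 0.27) and 28.6-fold in MK2/3-/- BMDM (4.84 ± 0.29), with no overlap of treated and untreated arrays.

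Bcl3, a partner of p50 and p52 homodimers that limits Toll-like receptor responses, had log2 signals of 13.15, 12.74, 13.04 and 13.34 in medium and 15.42, 15.73 and 15.81 with LPS in wt BMDM. In MK2-/- BMDM its values were 13.02, 12.19, 12.67 and 12.90 in medium and 15.05, 15.67, 15.06 and 15.62 with LPS. The MK2/3-/- arrays gave 13.09, 12.59 and 13.02 in medium and 14.09, 14.94, 13.68 and 14.34 with LPS. All 4 MK2/3-/- LPS arrays were above the medium arrays of that genotype and below every LPS array of the other genotypes. Bcl3 rose 6.02-fold in wt (2.59 ± 0.27), 6.30-fold in MK2-/- (2.66 ± 0.25) and 2.58-fold in MK2/3-/- BMDM (1.36 ± 0.27, adjusted p = 0.00034, limma).

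**Figure D3:**
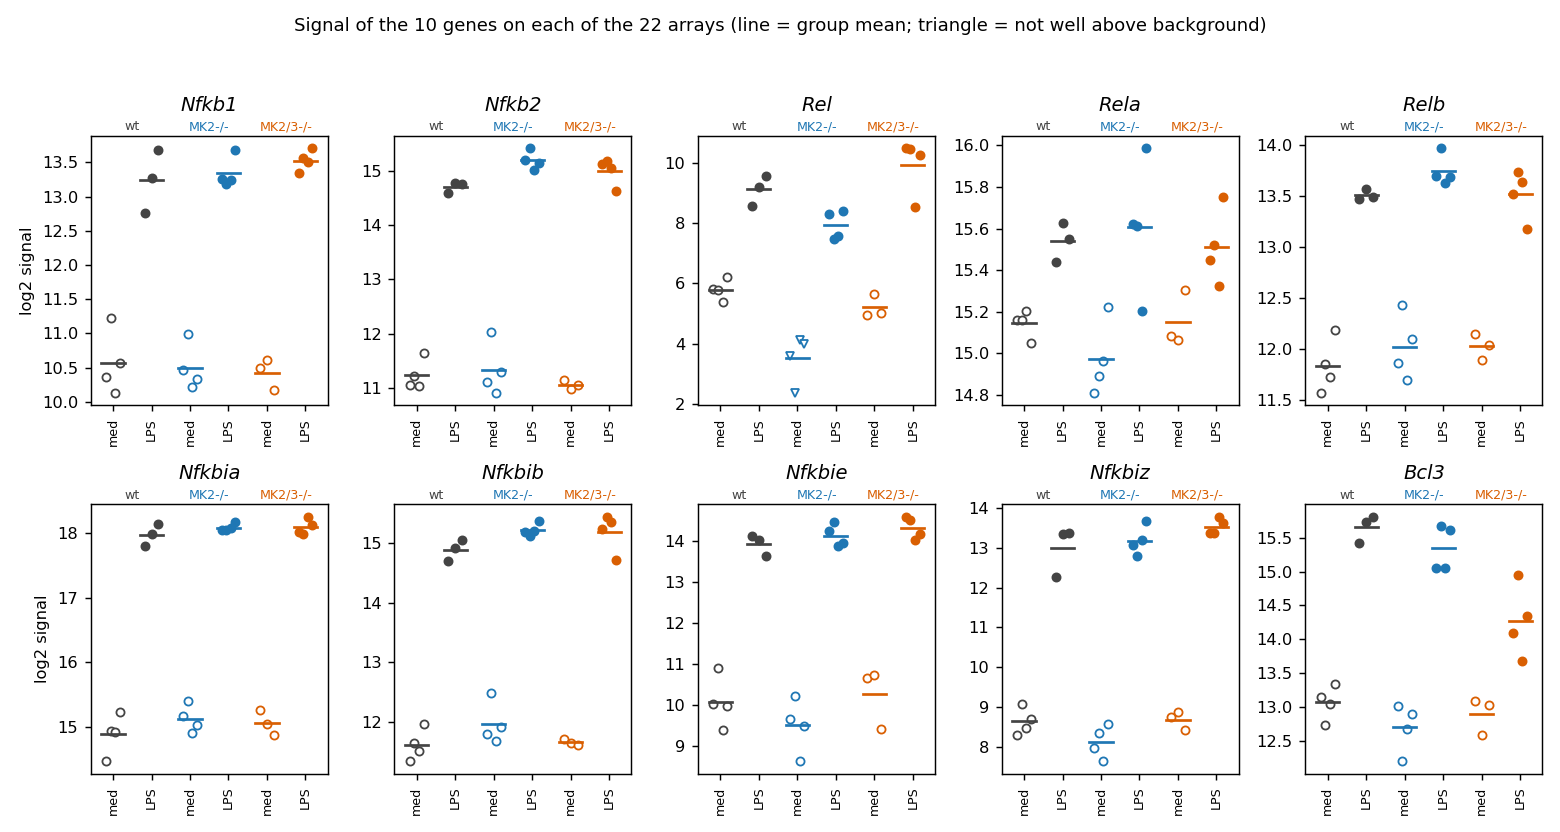
Log2 signal of each of the 10 genes on the 22 arrays, in medium (open) and with LPS (filled), by genotype (line, group mean; triangle, not well above background; each panel has its own axis). Rel is lowest on the 4 MK2-/- arrays in medium, and Bcl3 with LPS is lowest on the 4 MK2/3-/- arrays (13.68 to 14.94).

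Since most of the genes rose together, the bases before their transcription starts are shown for those on which the comparisons turn. RefSeq (GRCm38.p6) windows of 250 bases before the start were at hand for 7 of the 10 genes, and not for Nfkb1, Relb and Nfkbiz. They were searched on both strands for the kB consensus, which is GGG, a purine, any base, A or T, a pair of pyrimidines and CC, and for a looser motif, GGG and CC with any 5 bases between them, which every match of the consensus also fulfils. The consensus was present for 4 of the 7 genes (Nfkb2, Rel, Nfkbia and Nfkbie), or 6 of their 9 windows, and in 3.9% of all 32817 windows. The looser motif was present for 6 of the 7 genes (all but Nfkbib), or 8 of the 9 windows, and in 45.8% of all windows. The sequences below run 5′ to 3′ on the strand of the gene, leave out bases that lie in an annotated gene, and have matches of the consensus in capitals:
Rel, chr11:23770970-23771219, minus strand: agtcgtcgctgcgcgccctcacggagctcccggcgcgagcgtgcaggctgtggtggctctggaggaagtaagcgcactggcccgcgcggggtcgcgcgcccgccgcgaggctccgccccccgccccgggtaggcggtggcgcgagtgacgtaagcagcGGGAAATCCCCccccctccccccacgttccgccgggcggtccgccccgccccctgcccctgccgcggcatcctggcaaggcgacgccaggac
Nfkbia, chr12:55492648-55492897, minus strand: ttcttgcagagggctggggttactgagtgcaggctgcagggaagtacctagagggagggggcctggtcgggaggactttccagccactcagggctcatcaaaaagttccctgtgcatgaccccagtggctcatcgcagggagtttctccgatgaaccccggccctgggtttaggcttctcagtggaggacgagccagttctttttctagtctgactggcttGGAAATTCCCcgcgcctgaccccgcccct
Nfkbie, chr17:45555450-45555699, plus strand: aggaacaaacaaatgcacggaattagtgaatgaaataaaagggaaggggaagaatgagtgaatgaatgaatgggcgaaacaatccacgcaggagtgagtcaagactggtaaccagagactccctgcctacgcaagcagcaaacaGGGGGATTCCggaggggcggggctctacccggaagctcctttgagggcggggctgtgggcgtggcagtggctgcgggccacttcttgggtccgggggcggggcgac
Nfkbib, chr7:28766645-28766751, minus strand: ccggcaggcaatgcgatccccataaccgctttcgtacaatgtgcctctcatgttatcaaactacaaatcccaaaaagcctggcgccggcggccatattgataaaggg
Bcl3, chr7:19822825-19823005, minus strand: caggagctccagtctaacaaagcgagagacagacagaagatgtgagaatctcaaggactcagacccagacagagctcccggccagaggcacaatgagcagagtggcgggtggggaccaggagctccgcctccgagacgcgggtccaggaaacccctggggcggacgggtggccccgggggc
The match lies 92 to 82 bases before the start of Rel, 29 to 20 bases before that of Nfkbia and 106 to 97 bases before that of Nfkbie. For Nfkbib the remaining bases of the window lie in the neighbouring gene Sirt2. For Bcl3 181 of the 250 bases are printed, and those nearest the start are left out, as they lie within annotated Bcl3 itself. The windows of the 3 annotated starts of Nfkb2 lie within genes, and of these only the matches are given, GGGAATTCCCC and GGGGCTTTCC at the first, GGAATGTCCC at the second and GGGACTTTCC at the third. Nfkbib and Bcl3, without the consensus in their windows, were among the genes that rose, and a match is a description of letters and not of a bound site.

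With LPS the genotypes differed in 2 of the 10 genes, Bcl3 and Rel, on the brightest probe of each gene. Bcl3 was 2.62-fold lower in MK2/3-/- than in wt BMDM (log2 difference -1.39 ± 0.27, adjusted p = 0.0015) and 2.12-fold lower than in MK2-/- BMDM (-1.09 ± 0.25, adjusted p = 0.0078, limma). Rel was 4.00-fold higher in MK2/3-/- than in MK2-/- BMDM (2.00 ± 0.43, adjusted p = 0.0043, limma). Thus 0 genes passed for MK2-/- against wt, 1 for MK2/3-/- against wt and 2 for MK2/3-/- against MK2-/-, beside 11.6, 23.7 and 13.4% of all probes. For MK2-/- against wt, 2 genes had an unadjusted p under 0.05, Nfkb2 (0.48, adjusted p = 0.155) and Rel (-1.18 ± 0.46, adjusted p = 0.0962, limma).

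The Rel arrays with LPS were ordered MK2/3-/-, wt and MK2-/- by their means of 9.93 ± 0.94 (SD, n = 4), 9.11 ± 0.49 (n = 3) and 7.93 ± 0.49 (n = 4). All MK2/3-/- arrays lay above all MK2-/- arrays, whereas neighbours in this order did not pass the test, with MK2/3-/- against wt at 0.82 (limma, adjusted p = 0.208). The MK2/3-/- group held 1 low array, replicate 3 at 8.52, and without it MK2/3-/- was above wt by 1.29 (adjusted p = 0.0263) and MK2-/- below wt with adjusted p = 0.0418 (limma). Without the 2 MK2-/- replicate 3 arrays, the differences between MK2/3-/- and MK2-/- BMDM were 1.88 for Rel (adjusted p = 0.0132) and -1.18 for Bcl3 (adjusted p = 0.0104, limma). By the methods' t-test on each pair of groups, none of the 10 genes passed after Benjamini-Hochberg adjustment in any comparison between genotypes.

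For Nfkbib with LPS the differences were at most 0.59 log2 units in size, and both deficient genotypes had higher means than wt on every probe. On the brightest probe MK2-/- minus wt was 0.33 (95% confidence interval -0.10 to 0.76, adjusted p = 0.301), MK2/3-/- minus wt 0.29 (-0.14 to 0.73, adjusted p = 0.319) and MK2/3-/- minus MK2-/- -0.03 (-0.44 to 0.37, adjusted p = 0.941, limma). The second probe passed the test for MK2/3-/- against wt (0.53, adjusted p = 0.0391) and not for MK2-/- against wt (0.45, adjusted p = 0.0985, limma). The third probe passed neither, at 0.59 (adjusted p = 0.0839) and 0.34 (adjusted p = 0.356, limma). On the brightest probes Nfkbiz was 0.54 higher with LPS in MK2/3-/- than in wt BMDM (adjusted p = 0.179, limma).

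In medium the genotypes differed in Rel. It was 4.81-fold lower in MK2-/- than in wt BMDM by the measured means (-2.27 ± 0.43, adjusted p = 0.00583, limma). No MK2-/- array in medium was well above background. With those below their dimmest signal well above background raised to it, Rel was 4.78-fold lower, which is likewise no lower limit. The MK2/3-/- mean of 5.2 ± 0.38 (SD, n = 3) lay between wt (5.79 ± 0.35, n = 4) and the measured MK2-/- mean (3.52 ± 0.80, n = 4). It was 3.20-fold above the measured MK2-/- mean (adjusted p = 0.0584) and differed from wt by -0.59 (adjusted p = 0.554, limma), so neither neighbour passed the test. Thus 1, 0 and 0 genes passed in the 3 comparisons, beside 7.95, 1.95 and 2.72% of all probes. No gene had an unadjusted p under 0.05 for MK2/3-/- against wt, and 1, Rel, did for MK2/3-/- against MK2-/-. With normexp background correction on the raw signals the measured Rel difference between MK2-/- and wt was -0.60 and did not pass (limma, adjusted p = 0.179). Without the 2 MK2-/- replicate 3 arrays Rel was again lower in MK2-/- than in wt BMDM (limma, adjusted p = 0.00821).

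**Figure D4:**
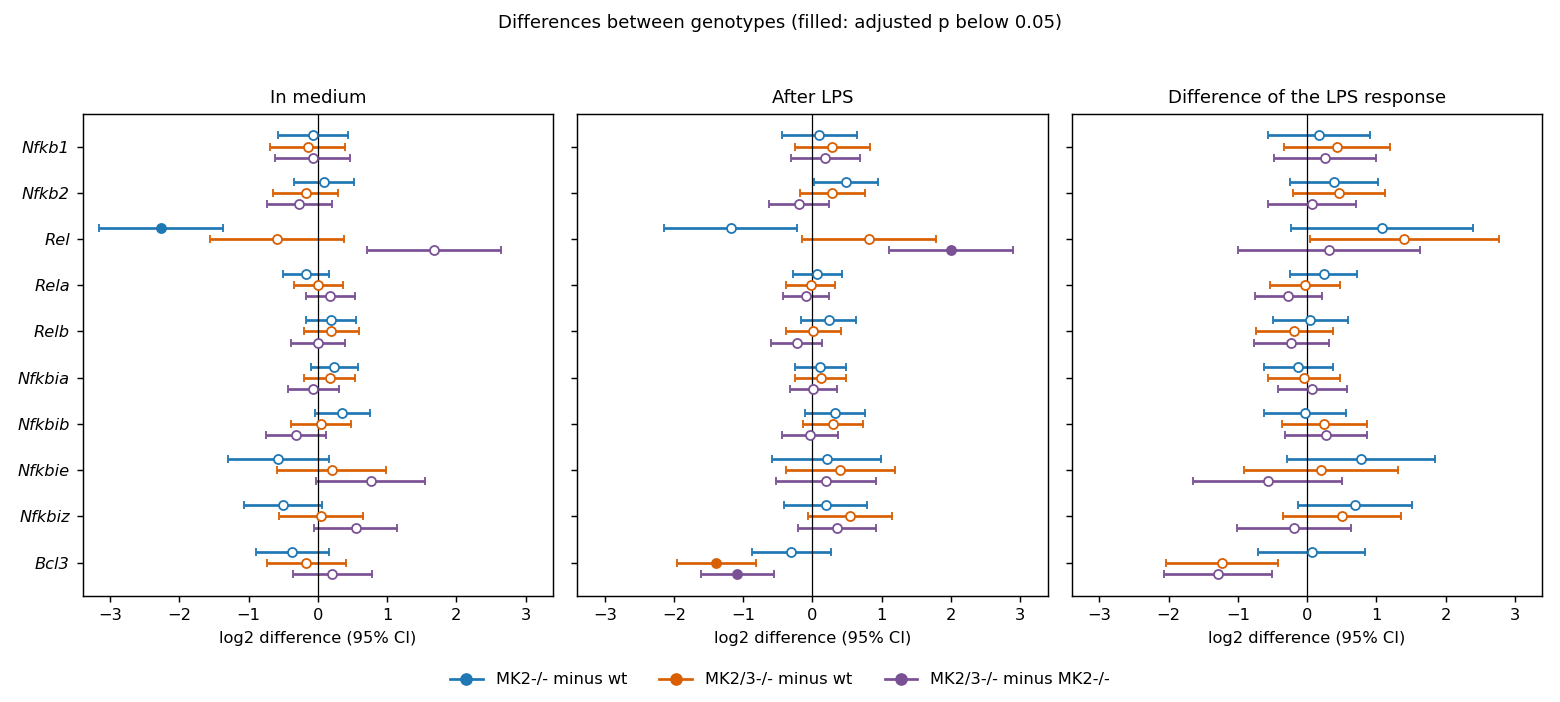
Log2 differences between genotypes for the 10 genes in medium, with LPS, and in the response to LPS (points, with 95% confidence intervals as bars; filled where the adjusted p was below 0.05). The filled points are Rel in MK2-/- minus wt in medium, and with LPS Rel in MK2/3-/- minus MK2-/- (2.00) and Bcl3 in MK2/3-/- minus wt (-1.39) and minus MK2-/- (-1.09).

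On their brightest probes the other 8 genes passed no test between genotypes. These 48 log2 differences in medium and with LPS ran from -0.57 to 0.77, with the lowest adjusted p at 0.155 (limma), and the 95% confidence intervals reached from -1.30 to 1.55. Nfkbie in medium had the largest of these, 0.77 higher in MK2/3-/- than in MK2-/- BMDM (limma, adjusted p = 0.349), in groups that overlapped. Nfkbib in medium differed by 0.36, 0.04 and -0.31 on the brightest probe, by 0.39, 0.24 and -0.14 on the second and by -0.08, -0.28 and -0.20 on the third (MK2-/- minus wt, MK2/3-/- minus wt and MK2/3-/- minus MK2-/-). The second Nfkb1 probe differed more than the brightest one, at -0.74, 0.36 and 1.09 in medium (limma, adjusted p = 0.231, 0.709 and 0.187) and at 0.32, 0.41 and 0.09 with LPS. The -0.74 and 1.09 include the 1 low MK2-/- medium array of this probe, replicate 2 at 7.68. The second Relb probe lay between -0.09 and 0.18 in these 6 comparisons. Of these further probes, the second of Nfkbib for MK2/3-/- against wt with LPS was the one called.

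The difference of the LPS response itself was not called for any of the 10 genes on any of their 14 probes. The share of all probes called was 0% for MK2-/- against wt, 0.984% for MK2/3-/- against wt and 0.0677% for MK2/3-/- against MK2-/-. The Bcl3 response in MK2/3-/- BMDM differed by -1.23 ± 0.38 log2 units from that in wt (adjusted p = 0.147) and by -1.29 ± 0.37 from that in MK2-/- BMDM (adjusted p = 0.263, limma). Rel responded by 1.40 ± 0.65 more in MK2/3-/- than in wt BMDM (adjusted p = 0.401, limma). On the brightest probes these were the genes with an unadjusted p under 0.05, of which there were 0, 2 and 1 in the 3 comparisons. For the brightest Nfkbib probe the differences of the response were -0.03, 0.25 and 0.28, with 95% confidence intervals within -0.62 to 0.87 (limma). The second Nfkbib probe gave 0.07, 0.28 and 0.22. The third gave 0.42, 0.86 and 0.44, of which that for MK2/3-/- against wt had a 95% confidence interval of 0.15 to 1.57 and an adjusted p of 0.278 (limma). The second Nfkb1 probe gave 1.06, 0.06 and -1.0 (limma, adjusted p = 0.681, 0.992 and 0.655), and the second Relb probe 0.04, -0.06 and -0.10. The 1.06 and -1.0 include the low MK2-/- medium array of the second Nfkb1 probe.

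Markers of other cell types differed between some of the same groups. Of the 21 tested by the same fit, Cpa3 was lower and Hba-a1 higher in MK2-/- than in wt BMDM with LPS, and Xcr1 and Cpa3 were among those higher in MK2/3-/- than in wt BMDM. Cpa3 was well above background on 10 and Xcr1 on 4 of the 22 arrays, so these differences rest on dim signals. Kit, the other mast cell marker tested, had LPS means of 6.09 in wt, 5.86 in MK2-/- and 5.74 in MK2/3-/- BMDM. Between MK2/3-/- and MK2-/- BMDM with LPS 6 differed, 5 of them higher in MK2/3-/-. For MK2-/- against wt 1 was higher and 1 lower, and for MK2/3-/- against wt 3 were higher and 0 lower. Of all probes, 13.4, 11.6 and 23.7% were called in these 3 comparisons, in the order given. In medium, where Rel was lower in MK2-/- BMDM, 4 differed between MK2-/- and wt, beside 7.95% of all probes. Cd3e, Cd79a and Hba-a1 were higher and Kit lower in MK2-/- BMDM. The summed T cell markers were at 11.0 to 12.3 (log2) in MK2-/- and 9.73 to 10.6 in wt BMDM in medium. This sum is nearly all Cd3e, with means of 11.58 and 10.26. Cd3d was at 4.24 and 3.68 and well above background on 10 of the 22 arrays. The part of the markers of other cell types in the differences of Rel and Bcl3 was not tested.

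The genes that act on NF-kB and IkB proteins were described by a list of 32, all of which were tested. With LPS 13 of them rose and 8 fell in wt, 15 rose and 11 fell in MK2-/-, and 14 rose and 9 fell in MK2/3-/- BMDM, beside 18.4, 17.6 and 20.2% of all probes called higher and 23.8, 27.9 and 28.5% called lower. The falling genes were thus near the share of all probes. The list's median log2 difference was 0.10, 0.48 and 0.47, beside -0.06, -0.04 and -0.02 over all probes. The negative regulators Tnfaip3 (A20) and its partner Tnip1 rose in every genotype, Tnfaip3 by 5.87, 6.98 and 6.08 and Tnip1 by 2.62, 2.53 and 2.37 (log2, in wt, MK2-/- and MK2/3-/-). Of the IkB kinase complex, Ikbkb rose by 1.94, 2.48 and 2.31, and of the related kinases Ikbke rose by 3.19, 3.57 and 3.76. Map3k14 (NIK), the kinase of the alternative pathway, fell, at -2.56, -2.30 and -2.53, and so did the deubiquitinase Cyld, at -2.20, -2.26 and -2.69. Without the 2 MK2-/- replicate 3 arrays the counts were 12 and 8, 14 and 9, and 13 and 9.

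**Figure D5:**
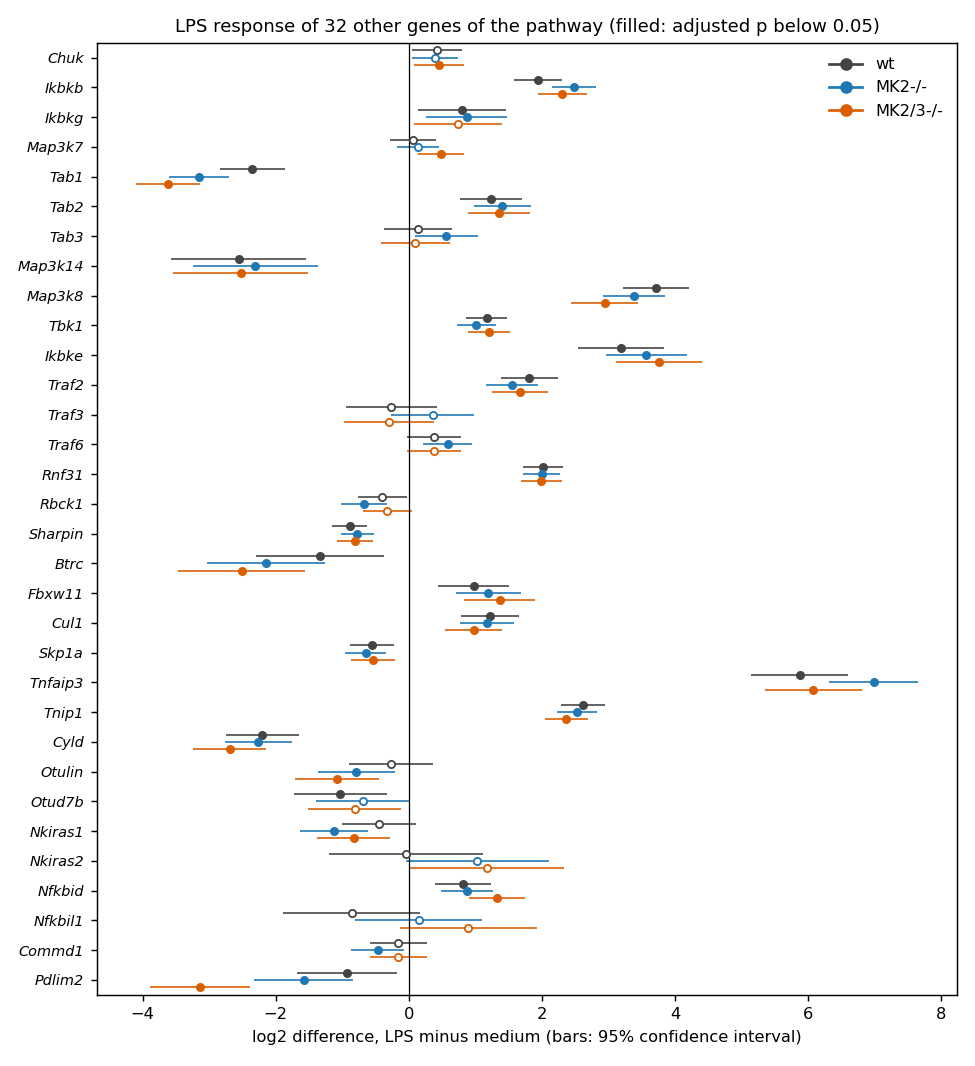
Log2 difference between LPS and medium for 32 other genes of the pathway (points, with 95% confidence intervals as bars) in the 3 genotypes, filled where the adjusted p was below 0.05. Tnfaip3 lies farthest to the right (5.87 to 6.98), Tab1 (-2.35 to -3.62), Map3k14 and Cyld are on the left, and for Pdlim2 the MK2/3-/- point (-3.13) lies apart from wt (-0.93).

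The ubiquitin ligase that marks IkB proteins uses βTrCP, encoded by Btrc and Fbxw11, which moved in opposite directions. Btrc fell, with log2 differences of -1.33 in wt, -2.15 in MK2-/- and -2.51 in MK2/3-/- BMDM, while Fbxw11 rose by 0.98, 1.20 and 1.36. Of the kB-Ras genes, whose proteins bind IkBβ and slow its degradation, Nkiras1 fell in MK2-/- (-1.13) and MK2/3-/- BMDM (-0.83) and was at -0.45 in wt (limma, adjusted p = 0.192), and Nkiras2 was at -0.04, 1.03 and 1.17 without passing the test. Nfkbid (IkBNS), a further atypical inhibitor, rose by 0.81, 0.88 and 1.32.

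Between genotypes with LPS, 2 of the 32 genes were called for MK2-/- against wt, 6 for MK2/3-/- against wt and 2 for MK2/3-/- against MK2-/-, beside 11.6, 23.7 and 13.4% of all probes, and none in medium. In none of these comparisons was the share of the list above that of all probes, and the genes below are given as single values. Pdlim2, which targets nuclear p65 for degradation, was lower in MK2/3-/- BMDM, by a log2 difference of -2.42 from wt (adjusted p = 0.000204) and of -2.05 from MK2-/- BMDM (adjusted p = 0.000954, limma). Nfkbil1 was 1.66 higher (adjusted p = 0.0207) and Nfkbid 0.76 higher (adjusted p = 0.0105) in MK2/3-/- than in wt BMDM (limma). Tab1, an adaptor of the kinase TAK1, was lower in MK2/3-/- BMDM than in wt (-1.62, adjusted p = 0.000136) and than in MK2-/- cells (-0.84, adjusted p = 0.0147), and lower in MK2-/- BMDM than in wt (-0.78, adjusted p = 0.0365, limma). Btrc (-1.52, adjusted p = 0.0222) and Map3k8 (-0.71, adjusted p = 0.0383), which encodes Tpl2, the kinase held by p105, were also lower in MK2/3-/- than in wt BMDM (limma). Nkiras1 differed by -1.19 between MK2-/- and wt BMDM (limma, adjusted p = 0.00964). The response to LPS differed for 1 of the 32 genes, Pdlim2, by -2.21 between MK2/3-/- and wt BMDM (limma, adjusted p = 0.0448). For that difference of the response 0.984% of all probes were called. Without the 2 MK2-/- replicate 3 arrays Tab1 in MK2-/- against wt, Map3k8 and the Pdlim2 response did not pass, and the other calls between genotypes did.

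Over the 22 arrays the genes of the family followed one another and other LPS-responsive genes. Correlations between pairs of the 10 genes ran from 0.761 (Rela and Relb) to 0.996 (Nfkb2 and Nfkbib), and all of the points share the split into LPS and medium arrays. The genes most like Nfkbia were Birc3 (r = 0.996), Tap1 (0.994) and Jak2 (0.994), and those most like Nfkbib were Nfkb2 (0.996), Sp100 (0.994) and Nfkbia (0.994). Nfkbiz was most like Tnf (0.994), Icam1 (0.993) and Cflar (0.991), Nfkb1 most like Tor1aip1 (0.990), Tnf (0.990) and Nfkbiz (0.989), and Nfkbie most like Znfx1 (0.990), Ehd1 (0.990) and B4galt5 (0.987). Nfkb2 was followed by Nfkbib (0.996), Gadd45b (0.994) and Mtdh (0.993), and Relb by Nfkb2 (0.988), Nfkbib (0.986) and Tnip1 (0.984). Rel, Bcl3 and Rela had lower values, Rel with Dennd1a (0.971), Eapp (0.970) and Slc25a22 (0.969), Bcl3 with Pfkfb3 (0.979), Nfil3 (0.971) and Rnd1 (0.959), and Rela with Gnl1 (0.917), Kdm1a (0.915) and Tut7 (0.914).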

How the data were processed

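RNA of 22 samples was labelled with Cy3 and hybridised to Agilent 1-colour mouse arrays, with 1 array per sample. The deposited scanner intensity of each spot had been background-corrected by the authors with Feature Extraction 11.0.1.1 (per the file headers) and was not normalised between arrays. A second deposited table holds log2 values that the authors made in GeneSpring GX by quantile normalisation and centring of each probe on its median. Its columns correlated with the scanner values at r between 0.992 and 0.999, with column medians from -0.0736 to 0.0828, and it served as an alternative. The other deposited scanner columns used were control, outlier, saturation and background marks.

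Controls were left out, marked spots (115 to 2927 per array, the most on MK2-/- LPS replicate 3) were set to missing, no spot was saturated, log2 processed signals were quantile normalised over the 22 arrays and spots of a probe were averaged. The values per array above are on this log2 scale, on which 1 unit is a doubling. Levels of different probes cannot be compared. Probes were named through RefSeq accessions (27509 of 29150 matched, GRCm38.p6 names, mm9 array design), and accession probes were tested if marked well above background on 3 or more arrays (28054), with 14 of 14 probes of the 10 genes among them. Where a gene has several probes, the one with the highest mean signal (the brightest probe) was counted, and the others are given by their differences. Means of the 6 groups were fitted with lmFit and eBayes (limma 3.58.1, R 4.3.3, data.table version 1.17.8), errors are standard errors of this fit unless named SD, and the threshold was an adjusted p (Benjamini-Hochberg, over all probes tested) of 0.05. The script was tested on simulated data. The number of arrays limits the precision, and p-values measure the spread between these samples. Groups came from the sample titles.

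The 10 genes, the list of 32 pathway genes and the markers were chosen with earlier results of these data known. Of the 32, those called between LPS-treated genotypes or in the response are named, with Nkiras1, Nkiras2, Btrc, Fbxw11 and Nfkbid in any case; a few others were named as examples after their values were seen. The 3 genes with the highest Pearson r are given for each member. Alternatives were 75th percentile scaling, normexp (offset 50, on median signals, since mean signals were not used here), the deposited table, other filters and probe sets, marked spots kept, array weights, fits of only the groups compared, the methods' t-test, replicate blocks and leaving out each array. Leaving out both arrays that go against the label male was added after seeing the data.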

Additional observations from a re-analysis of the deposited data

Results flagged for a closer look

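On the brightest probes, single arrays stood apart from the rest of their group in 2 of 40 groups of 4 arrays tested by Dixon's ratio, and chance alone gives about 1 in 20. The other probes were not tested in this way. Nfkb1 on replicate 4 of MK2-/- BMDM with LPS was at 13.68, above the other arrays of that group at 13.18 to 13.26. Rel on replicate 3 of MK2/3-/- BMDM with LPS was at 8.52, below the other arrays at 10.25 to 10.48. Why these arrays stand apart was not tested.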

How the results depend on the processing

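Of 566 log2 differences recomputed for the called genes and Nfkbib under settings other than leaving out 1 array, 553 kept their direction and their side of the threshold, 6 lost significance and 7, all of Nfkbib and none called, changed sign. The called LPS responses kept direction and call under every setting run, except that Rel was not tested under the strict filter (well above background on all 22 arrays). Rela in wt was gained with the 75th percentile (1.23) and the deposited table (0.51), among others, and in MK2/3-/- with the same settings (1.29 and 0.49). With LPS, the count for MK2-/- against wt was 1 instead of 0 with the 75th percentile, normexp or array weights, through Rel (-1.10, -1.0 and -1.29). The count for MK2/3-/- against wt was 0 by the t-test (Bcl3 adjusted p = 0.0951). That for MK2/3-/- against MK2-/- was 1 under the strict filter or with only the groups compared (Bcl3 adjusted p = 0.0806), and 0 by the t-test (Rel 0.119, Bcl3 0.142). In medium the count for MK2-/- against wt was 0 with normexp, the strict filter or the t-test (Rel adjusted p = 0.0556), and that for MK2/3-/- against MK2-/- was 1 with the 75th percentile, all non-control probes or array weights. The cause of these changes was not tested, apart from Rel being left out by the strict filter. Nfkbib changed sign in MK2/3-/- minus MK2-/- with LPS (0.037 with array weights), in MK2/3-/- minus wt in medium (-0.20 with the 75th percentile, -0.011 with array weights) and in the response of MK2-/- against wt (0.019 with the 75th percentile, 0.019 with the deposited table, 0.00017 with marked spots kept, 0.058 with array weights). The t-test has no form for the difference of responses and was not run there.

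Leaving out 1 array at a time gave 9 to 10 called genes in wt, 10 in MK2-/- and 9 in MK2/3-/- BMDM for LPS against medium. With LPS it gave 0 to 1, 1 to 2 and 2 to 2 for MK2-/- against wt, MK2/3-/- against wt and MK2/3-/- against MK2-/-, and in medium 1 to 1, 0 to 0 and 0 to 1. The changes between LPS-treated genotypes came with MK2/3-/- LPS replicate 3 left out, as did that in medium (Rel, limma adjusted p = 0.0159). Of 325 such log2 differences 317 were unchanged in direction and call and 8, all of Nfkbib, changed sign, in MK2/3-/- minus MK2-/- with LPS (-0.12 to 0.12), in MK2/3-/- minus wt in medium (-0.050 to 0.16) and in the response of MK2-/- against wt (-0.14 to 0.14).

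The numbers of the labels were not treated as pairing: of 10 same-numbered pairs of arrays 7 had deviations that correlated with r over 0.1 (-0.075 to 0.369). With the replicate block (correlation 0.118) the counts of called genes were 9, 10 and 9 for LPS, 0, 1 and 2 between genotypes with LPS, 1, 0 and 0 in medium and 0, 0 and 0 for the responses, so that it changed no count. With a block by the letters of the array names (correlation 0.143; 7 of 10 same-letter pairs and 5 of 30 others had r over 0.1) the count for LPS in wt was 10, through Rela (0.39, limma adjusted p = 0.0465), and the other counts were the same.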
